A study of Mus musculus with 36 samples.

Results

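Wild-type (WT) Th1 cells were compared with WT Th2 cells in 6 of the 36 RNA libraries of the series, 3 of each fate, taken by their titles alone. The series title names a three-dimensional clique of chromatin contacts at the Ets1 locus in T cells, and the other libraries hold naive cells, cells of an Ets1-SE-KO strain (KO) and a second Th1 experiment with retroviruses. WT Th1 cells were spleen cells of C57BL/6J mice: naive CD4+ cells, taken by negative selection with beads, were activated on plates coated with anti-CD3 and cultured for 6 days with IL-12 at 10 ng/mL, IL-2 at 1 ng/mL and soluble anti-CD28. WT Th2 cells carry the same strain and tissue labels, and how they were cultured is not stated there. KO Th1 and KO Th2 cells, 3 libraries each, entered the same fit and are cited where the same fate difference is set beside that of WT cells. Levels in 2 libraries of untransduced WT Th1 cells from the second experiment and in 2 libraries of naive WT cells are given as values only. In the titles, all 12 fitted libraries share the number 1 before the letter B and carry 1 to 3 before the letter T, and what these mark is not stated. Whether the 3 libraries of a group stem from different mice or wells is not stated, and p-values therefore cover only library-to-library spread, possibly of a technical kind.

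CD4 helper T cells choose a fate after activation. IL-12 signals through Stat4 and, with the T-box factor T-bet (gene Tbx21), leads to Th1 cells, which make interferon gamma against intracellular microbes. IL-4 signals through Stat6 and, with the factor Gata3, leads to Th2 cells, which make IL-4, IL-5 and IL-13 against helminths and in allergy. T-bet and Gata3 counteract each other.

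Gene counts per library were 8725361 to 10256407 in Th1 and 7311614 to 7590639 in Th2 cells. Mitochondrial genes took 7.40% to 8.20% of the counts in Th1 and 8.05% to 9.78% in Th2 cells. Reads that did not map were 46% to 47.6% of the reads in Th1 and 48.1% to 50.3% in Th2 cells. The parts of depth, mitochondrial share and mapping in the differences below were not tested. Levels are gene counts scaled to library size by TMM and given as CPM, and they are compared between groups for 1 gene at a time, never between genes. Differences are log2 of Th1 over Th2 with a standard error (SE), and adjusted p values are from edgeR's quasi-likelihood test with Benjamini-Hochberg adjustment over all 12616 genes tested. A gene is called at an adjusted p under 0.05. In bulk RNA, fewer cells that express a gene and less RNA of it per cell cannot be told apart.

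The lineage markers separated the fates in every library, and the separation was far wider for the Th1 markers than for the Th2 markers. Ifng encodes interferon gamma and lies on chromosome 10 (118441046 to 118445892, plus strand, GRCm38). It was at 963, 534 and 683 CPM in the Th1 libraries, against 0.966, 2.41 and 0.551 CPM in the Th2 libraries. No Th2 library came near any Th1 library, and the log2 difference was 9.11 (SE 0.348, adjusted p = 1.85e-12), and 9.88 without Th2 library 2. Tbx21 was at 65.9, 56.5 and 51.6 CPM in Th1 libraries and at 5.80, 5.25 and 4.96 CPM in Th2 libraries, a log2 difference of 3.44 (SE 0.194, adjusted p = 3.11e-10). Gata3 was at 143, 211 and 95.4 CPM in Th1 libraries, against 398, 445 and 397 CPM in Th2 libraries. Every Th1 library lay below every Th2 library, with a log2 difference of -1.47 (SE 0.201, adjusted p = 1.76e-05). Il13 was at 124, 119 and 66.3 CPM in Th1 libraries and at 244, 243 and 254 CPM in Th2 libraries, again without overlap (-1.26, SE 0.270, adjusted p = 0.0015).

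The Th1 libraries also held RNA of the Th2 markers, with means of 150 CPM of Gata3 and 103 CPM of Il13. In the 2 untransduced WT Th1 libraries of the second experiment, Gata3 was at 14.7 and 16 CPM and Il13 at 5.94 and 5.61 CPM. Those same libraries had 202 and 176 CPM of Tbx21 and 1492 and 1597 CPM of Ifng. Naive WT cells had a mean of 110 CPM of Gata3 and 0.194 CPM of Il13 (n = 2). The second experiment has its own libraries, so these levels are set side by side without a test, and the cause of the gap between the experiments was not tested. In KO cells the log2 differences of Th1 over Th2 were -0.70 for Gata3 (adjusted p = 0.0183) and -0.23 for Il13 (adjusted p = 0.618). The change of the fate difference in WT relative to KO cells was called neither for Gata3 (-0.77, SE 0.278, adjusted p = 0.392) nor for Il13 (-1.04, SE 0.374, adjusted p = 0.392).

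**Figure D1:**
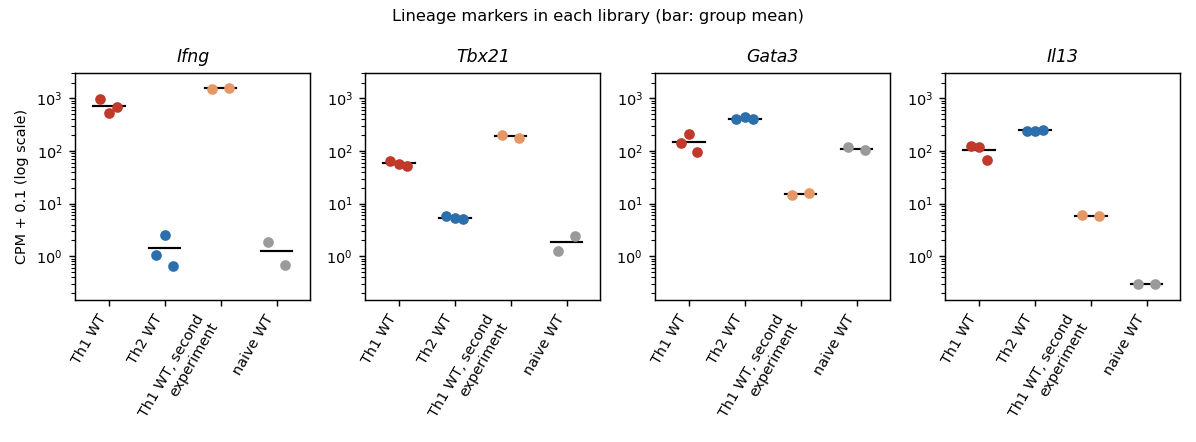
CPM + 0.1 of 4 lineage markers on a log scale, 1 point a library and a bar at the mean, in Th1 WT, Th2 WT, untransduced Th1 WT cells of the second experiment and naive WT cells. The Th1 and Th2 points do not overlap for any of the markers, and Gata3 and Il13 stand lower in the second experiment's Th1 cells (means of 15.3 and 5.78 CPM) than in the first experiment's (150 and 103 CPM).

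The promoters of the 4 markers are shown because these genes define the fates, and factors of the T-box, GATA and Stat families are known to act in Th1 and Th2 cells. Each runs from 250 bases before to 50 bases after the start site in the RefSeq table for GRCm38.p6, on the gene's own strand. Capitals mark matches, on either strand, to the T-box letters TCACAC, to the Stat letters TTCNNNGAA, and to the GATA letters, which are GATAA after an A or a T. Ifng lies at chr10:118440796-118441095 (plus strand), Il13 at chr11:53634653-53634952 (minus), Tbx21 at chr11:97115282-97115581 (minus) and Gata3 at chr2:9878551-9878850 (minus).
Ifng: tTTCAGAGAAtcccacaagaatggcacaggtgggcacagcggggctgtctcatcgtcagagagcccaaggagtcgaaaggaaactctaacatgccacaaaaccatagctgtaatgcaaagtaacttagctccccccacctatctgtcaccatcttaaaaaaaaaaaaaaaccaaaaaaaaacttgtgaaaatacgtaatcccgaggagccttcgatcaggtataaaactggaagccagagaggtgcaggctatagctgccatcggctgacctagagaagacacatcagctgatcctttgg
Il13: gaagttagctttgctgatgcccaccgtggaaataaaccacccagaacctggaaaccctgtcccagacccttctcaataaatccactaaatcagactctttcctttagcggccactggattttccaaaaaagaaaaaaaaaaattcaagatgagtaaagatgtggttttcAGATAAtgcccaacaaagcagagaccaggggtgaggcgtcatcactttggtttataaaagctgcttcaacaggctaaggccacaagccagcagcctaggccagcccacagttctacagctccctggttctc
Tbx21: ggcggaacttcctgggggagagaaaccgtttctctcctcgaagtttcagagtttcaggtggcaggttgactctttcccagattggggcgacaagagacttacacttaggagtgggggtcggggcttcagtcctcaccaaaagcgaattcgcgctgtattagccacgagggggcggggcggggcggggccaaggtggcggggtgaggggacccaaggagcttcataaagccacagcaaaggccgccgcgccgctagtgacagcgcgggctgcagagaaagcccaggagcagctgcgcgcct
Gata3: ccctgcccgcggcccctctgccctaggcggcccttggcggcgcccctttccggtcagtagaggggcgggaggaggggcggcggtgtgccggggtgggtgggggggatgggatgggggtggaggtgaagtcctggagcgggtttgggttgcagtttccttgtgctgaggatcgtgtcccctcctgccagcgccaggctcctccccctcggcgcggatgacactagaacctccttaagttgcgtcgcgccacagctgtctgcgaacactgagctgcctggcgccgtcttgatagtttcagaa
The Ifng window holds 1 Stat match, at -249 from the start site, and the Il13 window 1 GATA match, at -81. The Tbx21 and Gata3 windows hold none of these letters. Of 238 genes at least 2-fold higher in Th1 that have a promoter in the table, 13.4% held the T-box letters, 12.2% the GATA letters and 9.24% the Stat letters. Of 423 genes at least 2-fold lower, the shares were 13%, 13.9% and 5.91%. Over the 9019 tested genes with a promoter they were 10.4%, 9.52% and 6.91%. A match is a description of letters, not a bound site.

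Across the transcriptome, 1723 genes were higher and 1994 lower in Th1 than in Th2 cells, 13.7% and 15.8% of the genes tested. With upper quartile scaling the balance turned, to 1930 higher and 1844 lower. Together 29.5% of all genes were called, and this share is the background for every list below. Of these, 320 genes were at least 2-fold higher and 555 at least 2-fold lower (2.54% and 4.4% of the genes tested, together 6.94%), so the large differences leaned to the Th2 side. The 3 Th1 and 3 Th2 libraries did not overlap for 5124 genes, or 40.6%. The median log2 difference over all genes was -0.01. Without Th1 library 1 the total of calls was 2787, the lowest of the 6 libraries left out in turn.

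The same fates were compared in KO cells. The KO libraries do not enter the WT means, but they share the estimate of spread with the WT libraries in 1 fit, so the calls of both genotypes are not independent (the 6 WT libraries alone gave 3073 WT calls). That comparison called 1011 genes higher (8.01% of the genes tested) and 1200 lower (9.51%) in Th1, together 17.5%, and leaving out library 2 of KO Th1 cells gave a total of 1380, or of KO Th2 cells 1441. Of the 1723 genes higher in WT Th1 cells, 1653 had the same sign in KO cells (95.9%), 793 were called the same way (46%, or 78.4% of the KO calls of that direction) and 0 the opposite way. Of the 1994 genes lower in WT Th1 cells, 1899 had the same sign (95.2%), 980 were called the same way (49.1%, or 81.7% of the KO calls) and 0 the opposite way. The difference of the fate effect between genotypes gave 0 calls in edgeR, with 1225 genes at an unadjusted p under 0.05, and 20 calls in DESeq2 and 213 with no filter on low counts. It gave 2 calls without Th1 WT library 2 and 3 calls without Th1 KO library 2. A count of 0 does not show that the fate effect is equal in both genotypes. Genes called higher in WT Th1 cells had a median log2 difference of 0.47 in WT and 0.29 in KO cells. Those called lower had -0.57 and -0.35. These genes were picked by their WT calls, which by itself favours wider WT differences.

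Among transcription factors, the called members of the lists for each fate were all on that fate's side, and the called factors known from other T cell fates were split between the sides. Of 11 Th1 factors tested, 7 were higher in Th1 cells and 0 lower (median 1.00). Hlx, a homeobox factor that enhances interferon gamma production, was at 62.3, 65.3 and 45.7 CPM in Th1 libraries, against 7.73, 7.09 and 17.6 CPM in Th2 libraries. Its lowest Th1 library was above its highest Th2 library (log2 difference 2.41, SE 0.234, adjusted p = 3.04e-07). Irf8, an interferon regulatory factor, was at 239, 231 and 256 CPM in Th1 and at 117, 118 and 112 CPM in Th2 libraries, tight in both groups (1.06, SE 0.0699, adjusted p = 2.16e-09). Zeb2, a zinc finger factor of effector T cells, had a log2 difference of 1.00 (adjusted p = 2.35e-06), and Stat4, the mediator of IL-12 signals, of 0.88 (adjusted p = 1.11e-04). Runx3, a partner of T-bet at Ifng, averaged 214 ± 28.7 CPM in Th1 and 182 ± 20.5 CPM in Th2 cells (SD, n = 3 each) and did not pass the test (0.24, adjusted p = 0.0812), though it did without Th2 library 3 (0.0303) or with no filter on low counts (0.00776). Eomes, a second T-box factor, was at 1.96 ± 0.289 and 0.935 ± 0.719 CPM and did not pass either (1.06, adjusted p = 0.109), except without Th2 library 2 (0.0238).

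Of 11 Th2 factors tested, 9 were lower in Th1 cells and 0 higher (median -0.29). The widest differences were not that of Gata3. Bhlhe41, a basic helix-loop-helix repressor, was at 0.424, 0.454 and 1.24 CPM in Th1 libraries, against 4.69, 4.54 and 5.51 CPM in Th2 libraries (-2.73, SE 0.341, adjusted p = 6.5e-06, and -3.44 without Th1 library 3). Pparg, a nuclear receptor for lipids, was at 13.7, 12.5 and 14.4 CPM in Th1 and at 57, 58 and 56.2 CPM in Th2 libraries. Its libraries hardly varied within a fate, and the log2 difference was -2.07 (SE 0.116, adjusted p = 3e-10). Batf, an AP-1 family factor needed for Th2 and Th17 cells, averaged 140 ± 42.6 CPM in Th1 and 282 ± 18.9 CPM in Th2 cells (-1.01, adjusted p = 8.5e-05), and Gfi1, a repressor that promotes Th2 cell growth, 45.5 ± 1.94 and 64.5 ± 9.28 CPM (-0.50, adjusted p = 0.00122). Maf, which activates Il4, was at 66.9 ± 14.3 CPM in Th1 and 81.3 ± 11.1 CPM in Th2 cells, with overlapping libraries (-0.29, adjusted p = 0.389, and 0.0248 with no filter on low counts). Irf4 was at 850 ± 52.6 and 903 ± 97.8 CPM (-0.09, adjusted p = 0.402).

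Factors of other T cell fates gave 5 higher and 4 lower genes of 19 tested (median 0.03). Hopx, a homeobox protein linked to effector and memory T cells, was at 54.3, 41.7 and 48.5 CPM in Th1 and at 8.83, 8.94 and 8.26 CPM in Th2 libraries (2.47, SE 0.142, adjusted p = 3.66e-10). Prdm1, the repressor Blimp-1, was at 43.2, 45.6 and 34.1 CPM in Th1 and at 14.4, 19.1 and 7.30 CPM in Th2 libraries, so that all Th1 libraries were higher (1.59, SE 0.259, adjusted p = 1.14e-04). Myb (0.99, adjusted p = 1.65e-06) and Ikzf2, the gene of Helios (0.87, adjusted p = 0.00164), were also higher. On the other side, Ahr, the aryl hydrocarbon receptor, was at 5.41, 4.20 and 7.91 CPM in Th1 libraries, against 40.7, 25.7 and 73.3 CPM in Th2 libraries. The Th2 libraries spread widely, yet the lowest was above every Th1 library (-2.97, SE 0.304, adjusted p = 5.95e-07). Tox2, an HMG-box factor of follicular helper T cells, had CPM of 0, 0 and 0.191 in Th1 and of 4.42, 2.13 and 3.03 in Th2 libraries (adjusted p = 1.3e-05). That is 2 counts in Th1 against 69 in Th2 cells, a ratio of 46.0 with a counting interval of 12.3 to 387 at 95% (exact, counting error only). Id2, an inhibitor of E proteins, was lower in Th1 cells too (-0.77, adjusted p = 5.82e-05). Bcl6, the follicular helper factor, averaged 1.57 ± 0.137 CPM in Th1 and 1.90 ± 0.415 CPM in Th2 cells (-0.28, adjusted p = 0.54).

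**Figure D2:**
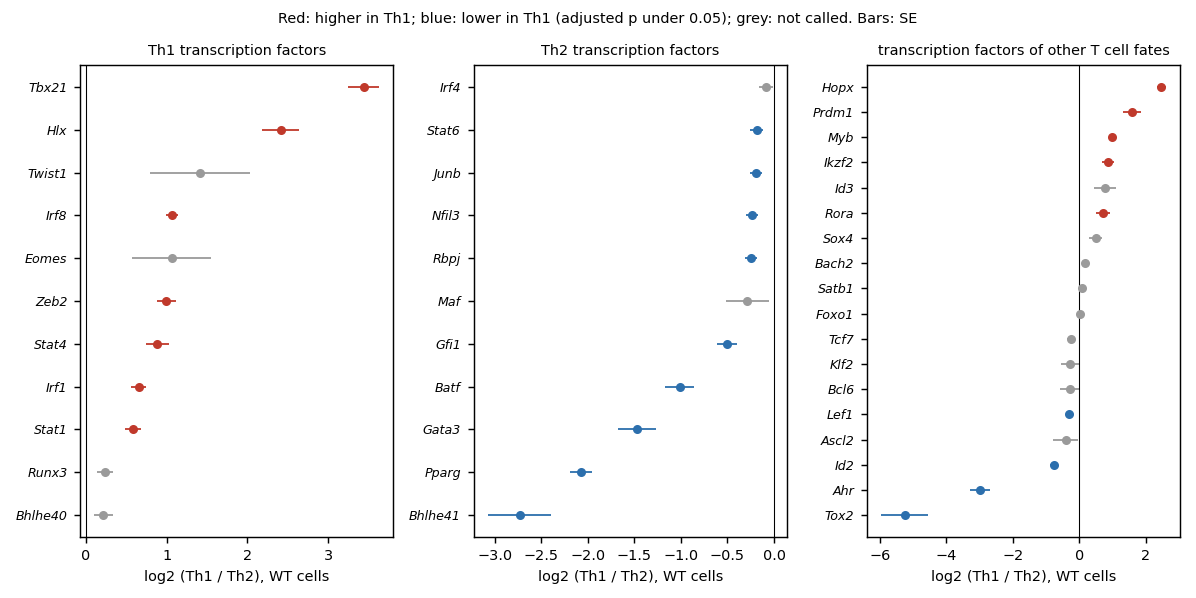
Log2 differences of WT Th1 over WT Th2 cells with standard errors for the Th1 factors, the Th2 factors and all but 1 of the factors of other T cell fates that were tested, red where higher in Th1, blue where lower and grey where not called. Tbx21 at 3.44 and Hlx at 2.41 lead the Th1 factors, Bhlhe41 at -2.73 and Pparg at -2.07 the Th2 factors.

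More general factors separated the fates less. Of 15 Runx, Ikaros and Ets factors, 6 were higher and 2 lower in Th1 cells, and 3 were higher when the 6 WT libraries were fitted alone. Fli1 (0.68, adjusted p = 7.38e-06) and Ikzf3, the gene of Aiolos (0.90, adjusted p = 0.0214), were higher, and the repressor gene Etv3 was lower (-0.66, adjusted p = 4.75e-05). The Ikzf3 call was lost in DESeq2 (0.108), when the 6 WT libraries were fitted alone (0.0637) and without Th1 library 2 (0.113), Th2 library 1 (0.0519) or Th2 library 3 (0.0676). Ets1 itself was at 738, 842 and 806 CPM in Th1 and at 861, 827 and 820 CPM in Th2 libraries, which overlapped (-0.07, adjusted p = 0.424). Of 18 AP-1, NFAT, Nr4a and Egr factors, 2 were higher and 5 lower, and 1 was higher without any one of the libraries other than Th1 library 1. Nr4a2, an orphan nuclear receptor, was higher (1.34, adjusted p = 0.00315), and Egr2, induced by T cell receptor signals, lower (-0.87, adjusted p = 0.00303). Of 13 NF-kB, Stat and Irf factors, 1 was higher, Irf2 (0.34, adjusted p = 0.0054), and 4 were lower, Stat5a (-0.53), Relb (-0.53), Nfkb2 (-0.45) and Stat5b (-0.40).

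Cytokine genes showed the fates as products. Of 22 tested, 6 were higher and 9 lower in Th1 cells. Below Ifng, the widest difference on the Th1 side was that of Spp1, the gene of osteopontin, at 174, 159 and 117 CPM in Th1 and 21.8, 33.8 and 18.2 CPM in Th2 libraries (2.61, SE 0.434, adjusted p = 1.4e-04). Tnf was at 27.6, 24.4 and 30.4 CPM in Th1 and 14.4, 12.8 and 15.8 CPM in Th2 libraries (0.94, SE 0.119, adjusted p = 7.87e-06), and Lta, lymphotoxin alpha, differed by 0.81 (adjusted p = 8.63e-05). Il22 was called too (2.04, adjusted p = 0.0152), but not without Th1 library 1 (0.0551), Th1 library 3 (0.0565) or Th2 library 3 (0.0613).

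On the Th2 side, Il9, a mast cell and T cell growth factor, was at 0.212, 0.907 and 0.0953 CPM in Th1 and at 7.18, 8.51 and 7.44 CPM in Th2 libraries (-4.27, SE 0.461, adjusted p = 1.21e-06, and -5.54 without Th1 library 2). Areg, the epithelial growth factor amphiregulin, averaged 0.864 ± 0.209 CPM in Th1 and 6.41 ± 1.08 CPM in Th2 cells (-2.86, adjusted p = 1.7e-06). Csf1, the macrophage growth factor, was at 21.9, 15 and 16.1 CPM in Th1 libraries, against 88.7, 69.9 and 98.6 CPM in Th2 libraries, a separation wider than that of Il13 (-2.28, SE 0.171, adjusted p = 1.2e-08). Il5, the eosinophil cytokine, averaged 23.1 ± 11.8 CPM in Th1 and 68.1 ± 11.2 CPM in Th2 cells (-1.57, adjusted p = 0.00404). Il4, which defines the Th2 fate, was at 8.70, 13.2 and 7.81 CPM in Th1 and at 20.3, 31.3 and 19.4 CPM in Th2 libraries (-1.27, SE 0.232, adjusted p = 3.6e-04; chosen after its values were seen). Il3 was lower as well (-1.38, adjusted p = 0.0122), but not without Th1 library 2 (0.0518) or Th2 library 2 (0.0557), and the difference was -2.12 without Th1 library 1. Csf2, the gene of GM-CSF, was at 6.65 ± 2.44 CPM in Th1 and 3.06 ± 0.0506 CPM in Th2 cells and just missed the threshold (1.10, adjusted p = 0.0578), which it passed without Th1 library 3 (0.0192), when the 6 WT libraries were fitted alone (0.0145), with upper quartile scaling (just under 0.05) and with no filter on low counts (4.54e-05). Il21 averaged 105 ± 21.5 and 119 ± 11.3 CPM (-0.18, adjusted p = 0.227) and was called without Th1 library 3 (0.00902).

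Of 17 chemokine genes in the list, 11 did not pass the filter on low counts. A gene can pass it through 1 high group alone, so the share called among the rest is not read as a result. Of the 6 tested, 4 were higher in Th1 cells and 2 lower (1 lower when the 6 WT libraries were fitted alone). Ccl3, a chemoattractant of inflammatory cells, was at 42.6, 32.8 and 24.4 CPM in Th1 libraries, against 0.690, 0.709 and 0.413 CPM in Th2 libraries (5.75, SE 0.357, adjusted p = 1.1e-09). Its neighbours Ccl9 (4.06, adjusted p = 1.05e-05), Ccl4 (3.52, adjusted p = 2.42e-06) and Ccl5 (1.51, adjusted p = 0.00118), in 1 cluster on chromosome 11, moved the same way. Ccl22, a ligand of Ccr4, was at 1.27, 3.06 and 2.48 CPM in Th1 and at 10.6, 25.4 and 16.1 CPM in Th2 libraries (-2.93, SE 0.288, adjusted p = 3.59e-07). Cxcl3 had no count in Th1 libraries and 0.690, 0 and 1.51 CPM in Th2 libraries, at least 6.77-fold lower in Th1 against a floor of 3 counts over the group (adjusted p = 0.00549). Th2 library 3 held 11 of its 16 counts, and the bound was 3.21-fold without it.

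Cytokine receptors moved to both sides and gave the highest number of Th2-side calls among the receptor lists. Of 37 tested, 7 were higher and 19 lower in Th1 cells (median -0.25). Il23r, the specific subunit of the IL-23 receptor, was at 16.1, 8.28 and 20.2 CPM in Th1 and at 0.276, 0.284 and 0.275 CPM in Th2 libraries (5.68, SE 0.557, adjusted p = 3.5e-07). It lies next to Il12rb2, the inducible subunit of the IL-12 receptor, which was at 563, 552 and 677 CPM in Th1 and at 136, 109 and 175 CPM in Th2 libraries (2.09, SE 0.152, adjusted p = 8.37e-09). The 2 chains of the interferon gamma receptor went opposite ways. Ifngr1, the ligand-binding chain, was at 109, 86.9 and 154 CPM in Th1 libraries, against 39.6, 42.1 and 40.1 CPM in Th2 libraries (1.53, SE 0.165, adjusted p = 1.23e-06). Ifngr2, the signalling chain, was at 18.8, 18.5 and 21.9 CPM in Th1 and at 46.2, 42.1 and 54 CPM in Th2 libraries (-1.26, SE 0.124, adjusted p = 3.4e-07; chosen after its values were seen).

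Receptors for IL-3 family cytokines, IL-9 and IL-33 were on the Th2 side. Il9r averaged 0.287 ± 0.171 CPM in Th1 and 3.14 ± 1.31 CPM in Th2 cells (-3.43, adjusted p = 1.67e-04). Csf2rb and Csf2rb2 are near-identical genes of beta chains of IL-3 family receptors, and the counting may have split their reads. They were at 0.101 ± 0.0958 CPM and at 0 in Th1 cells, against 1.72 ± 0.0718 and 2.13 ± 0.827 CPM in Th2 cells. Csf2rb2 was at least 19.5-fold lower in Th1 against a floor of 3 counts over the group (adjusted p = 1.74e-04). Csf2rb had 3 counts in Th1 and 37 in Th2 cells, 16.4-fold lower in Th1 with a counting interval of 5.21 to 83.4 (adjusted p = 2.35e-04). Il2ra, the alpha chain of the IL-2 receptor, averaged 3891 ± 251 CPM in Th1 and 3515 ± 261 CPM in Th2 cells and was not called (0.15, adjusted p = 0.0766), except without Th1 library 3 (0.0412), with no filter on low counts (0.0204) or with upper quartile scaling (0.042).

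A run of IL-1 and IL-18 receptor genes on chromosome 1 changed direction along its length (loci in this and the next paragraph were picked after their values were seen). Il1r2, a decoy receptor for IL-1 (40074079 to 40125231), was at 31.2, 29.6 and 35.5 CPM in Th1 libraries, against 136, 118 and 122 CPM in Th2 libraries (-1.96, SE 0.0850, adjusted p = 7.34e-12). Il1r1, the signalling receptor for IL-1, differed by -1.92 (adjusted p = 5.46e-05), and Il1rl1, the receptor for IL-33 known as ST2 (40429570 to 40465415), by -2.04 (adjusted p = 3.27e-05). The next gene, Il18r1, starts 0.1 kb past the annotated end of Il1rl1 on the same strand, at 40465552, and went the other way. It was at 58, 32.1 and 66.6 CPM in Th1 and at 19, 11.5 and 26.2 CPM in Th2 libraries (1.47, SE 0.293, adjusted p = 8.06e-04). Il18rap, the other IL-18 receptor chain, was at 16.5, 9.87 and 13.7 CPM in Th1 and at 1.93, 1.13 and 2.62 CPM in Th2 libraries (2.81, SE 0.290, adjusted p = 7.01e-07). Il1rl2, inside the run, was at 1.95 ± 0.622 and 0.736 ± 0.554 CPM and just missed the threshold (1.39, adjusted p = 0.0503), which it passed without Th2 library 3 (0.0284) and under 4 other settings (0.0183 to 0.0484). In KO cells the same genes had log2 differences of -1.85 (Il1r2), -1.56 (Il1r1), -3.83 (Il1rl1), 0.61 (Il18r1, not called) and 1.45 (Il18rap).

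The TIM family on chromosome 11, glycoproteins that tune T cell activation, also held both directions. Havcr2, the inhibitory receptor TIM-3 (46454935 to 46481255), was at 17.2, 17.2 and 11.5 CPM in Th1 and at 1.93, 3.69 and 0.826 CPM in Th2 libraries (2.83, SE 0.363, adjusted p = 8.9e-06, and 3.45 without Th2 library 2). Timd2, which encodes TIM-2 and lies 187.7 kb further on, was at 10.6, 11.5 and 9.24 CPM in Th1 libraries, against 172, 143 and 175 CPM in Th2 libraries (-3.97, SE 0.290, adjusted p = 8.98e-09). Havcr1, the costimulatory receptor TIM-1, had no count in Th1 libraries and 0.276, 1.42 and 1.65 CPM in Th2 libraries, at least 10.2-fold lower in Th1 against a floor of 3 counts over the group (adjusted p = 7.67e-04).

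**Figure D3:**
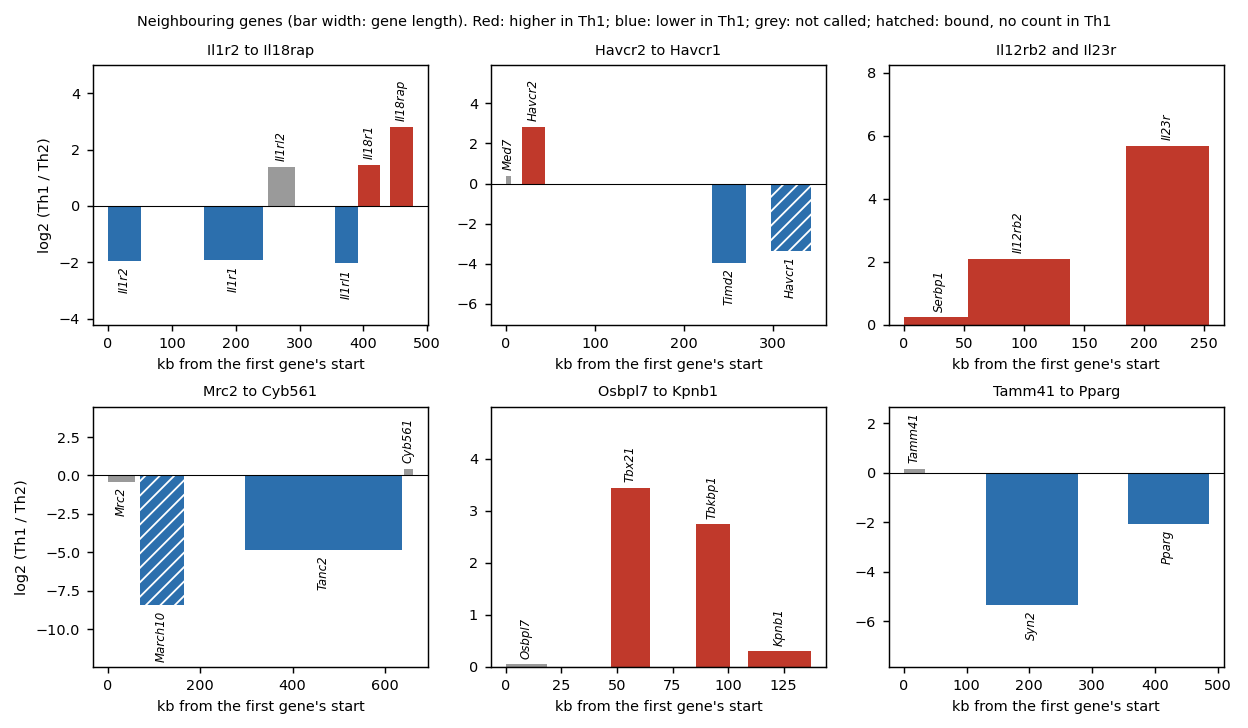
Log2 differences of WT Th1 over WT Th2 cells (y axis) along 6 loci, with distance in kb from the start of the first gene on the x axis and the gene's length as bar width; hatched bars are bounds for genes with no count in Th1 cells. Direction changes between Il1rl1 (-2.04) and Il18r1 (1.47) and between Havcr2 (2.83) and Timd2 (-3.97), while Tbx21 and Tbkbp1, Il12rb2 and Il23r, March10 and Tanc2, and Syn2 and Pparg move together.

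Of 12 chemokine receptors tested, 4 were higher and 2 lower in Th1 cells (median 0.06). Ccr2, a receptor for Ccl2, was at 15.1, 18 and 34.3 CPM in Th1 and at 2.90, 6.95 and 2.07 CPM in Th2 libraries, without overlap (2.51, SE 0.384, adjusted p = 5.83e-05, and 3.18 without Th2 library 2). Ccr1, a receptor for Ccl3, averaged 8.46 ± 2.22 CPM in Th1 and 2.92 ± 0.182 CPM in Th2 cells (1.54, adjusted p = 0.00114). Cxcr3, the classical Th1 receptor, was low in both, at 2.71 ± 0.190 CPM in Th1 and 1.39 ± 0.349 CPM in Th2 cells. Its call (0.96, adjusted p = 0.0265) was lost in DESeq2 (0.067) and without Th1 library 1 (0.076), Th1 library 3 (0.0588), Th2 library 2 (0.104) or Th2 library 3 (0.0523). The Th2-associated receptors Ccr8 and Ccr4 were lower in Th1 cells, Ccr8 at 13.3 ± 4.85 against 27.5 ± 2.22 CPM (-1.06, adjusted p = 3.9e-04) and Ccr4 at 115 ± 4.42 against 177 ± 8.88 CPM (-0.62, adjusted p = 3.91e-06).

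Receptors for small messengers held the most sharply separated gene of any receptor list by adjusted p. Of 30 G protein-coupled and purine receptors tested, 8 were higher and 11 lower in Th1 cells, and without Th1 library 3 the higher count was 5. Htr1b, a serotonin receptor of the Gi-coupled class (chromosome 9), was at 0.849, 1.13 and 0.667 CPM in Th1 libraries, against 50.9, 48.4 and 41.2 CPM in Th2 libraries (-5.73, SE 0.197, adjusted p = 5.46e-13). In KO cells it averaged 2.56 CPM in Th1 and 58.1 CPM in Th2 cells (-4.51). Gpr83, an orphan receptor of regulatory T cells, was at 1.80, 2.72 and 2.48 CPM in Th1 and at 16.8, 17.6 and 7.99 CPM in Th2 libraries (-2.59, SE 0.297, adjusted p = 2.42e-06). Calcrl, the receptor for the neuropeptide CGRP, averaged 36 ± 10.4 CPM in Th1 and 110 ± 10.9 CPM in Th2 cells (-1.62, adjusted p = 1.02e-05). On the Th1 side, Gpr65, which senses protons, was at 62.7, 49.9 and 83.3 CPM in Th1 and at 18.9, 16.3 and 18.3 CPM in Th2 libraries (1.87, SE 0.196, adjusted p = 8.07e-07). P2rx7, an ATP-gated channel, averaged 38.5 ± 4.02 and 11.7 ± 1.78 CPM (1.73, adjusted p = 1.06e-08). Gpr18 differed by 1.19 (adjusted p = 1.96e-05).

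Costimulatory and inhibitory receptors gave 4 higher and 12 lower genes of 30 tested (median -0.16). Beside the TIM genes, Slamf6, a self-ligand receptor of naive and stem-like T cells, averaged 1.05 ± 0.532 CPM in Th1 and 4.93 ± 2.25 CPM in Th2 cells (-2.18, adjusted p = 6.46e-04). Cd200r1, an inhibitory receptor, differed by -1.83 (adjusted p = 2.62e-04) and Cd83 by -1.17 (adjusted p = 9.23e-07). Icos was at 77.6, 80.8 and 68.8 CPM in Th1 and at 39.2, 42.3 and 26.3 CPM in Th2 libraries (1.08, SE 0.140, adjusted p = 9.95e-06), and the inhibitory receptor Lag3 differed by 0.75 (adjusted p = 2.32e-04). Pdcd1 (0.04) and Ctla4 (-0.13) were not called. Among 9 TNF family ligands, 2 were higher and 4 lower. Fasl, the death ligand, was at 15, 10.2 and 13.8 CPM in Th1 and at 2.21, 2.13 and 4.82 CPM in Th2 libraries (2.08, SE 0.258, adjusted p = 5.97e-06). Tnfsf8, the ligand of CD30, was at 33.6, 40.2 and 42.9 CPM in Th1 libraries, against 160, 156 and 147 CPM in Th2 libraries (-1.99, SE 0.0877, adjusted p = 8.63e-12). Tnfsf14, known as LIGHT, differed by -2.05 (adjusted p = 4.32e-10), and Tnfsf13b, the B cell factor BAFF, by -3.03 (adjusted p = 2.29e-05).

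Adhesion genes leaned to the Th1 side, with 13 higher and 5 lower of 32 tested (median 0.21). Itga2, a collagen receptor chain, was at 2.97, 3.74 and 1.52 CPM in Th1 and at 0.552, 0.425 and 0.138 CPM in Th2 libraries, without overlap (2.82, SE 0.556, adjusted p = 7.31e-04). Ly6c1 and Ly6c2 (2.74 and 2.36), near-identical genes whose reads the counting may have split, were also higher. Itgb3 was at 44.3, 60.5 and 47.2 CPM in Th1 and at 160, 130 and 149 CPM in Th2 libraries (-1.53, SE 0.141, adjusted p = 1.54e-07), and Itgb5, another partner of the alpha-v chain, differed by -1.53 (adjusted p = 1.39e-08). Itgae, the chain that binds E-cadherin, averaged 2.22 ± 0.890 CPM in Th1 and 7.46 ± 0.668 CPM in Th2 cells (-1.76, adjusted p = 7.33e-05).

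Of 23 cytotoxic granule and NK receptor genes in the list, 6 did not pass the filter on low counts. Of the 17 tested, 11 were higher in Th1 cells and 2 lower (median 1.39), and 10 of the higher ones were at least 2-fold higher. A gene of low level can pass the filter through 1 high group alone, so neither the share called nor the median is read as a result. Gzmb, granzyme B, was at 2490, 2322 and 1833 CPM in Th1 libraries, against 262, 401 and 179 CPM in Th2 libraries (2.98, SE 0.249, adjusted p = 4.41e-08). Nkg7, a granule membrane protein, was at 129, 96.4 and 102 CPM in Th1 and at 8, 8.51 and 7.30 CPM in Th2 libraries (3.78, SE 0.198, adjusted p = 1.15e-10). The NK receptor genes Klrd1 (adjusted p = 4.3e-07), Klrk1 (4.74, adjusted p = 5.98e-08) and Klrc1 (4.56, adjusted p = 2.21e-07) had the widest differences. Klrd1, which encodes CD94, was at 7.21, 3.29 and 6.96 CPM in Th1 and at 0.138, 0 and 0.138 CPM in Th2 libraries, 170 counts against 2, or 63.8-fold higher with a counting interval of 17.4 to 531. The 2 lower genes, Lamp1 (-0.25) and Srgn (-0.22), both lost their calls without Th1 library 2 or Th2 library 1, and 1 of them did so without Th1 library 1, Th2 library 2 or Th2 library 3. The Srgn call was also lost under 5 other settings (adjusted p 0.0518 to 0.08) and that of Lamp1 with no filter on low counts (0.0549).

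Markers of gamma-delta T cells, NK cells and CD8 T cells were set beside these genes. Gzma stands in both the NK list and the list above. The 1 CD8 T cell marker tested was not called (-0.51). Of 7 gamma-delta T cell markers in the list, 5 passed the filter, and all 5 were higher in Th1 cells. At such low levels a gene can pass through 1 high group alone, so this share is not read as a result. The summed level of the list was 22.3 to 37.4 CPM in Th1 and 7.31 to 14.3 CPM in Th2 libraries. Trdc, which encodes the delta chain's constant part, was at 8.91, 7.83 and 15.4 CPM in Th1 and at 3.45, 7.09 and 6.47 CPM in Th2 libraries. Without Th1 library 3 or Th2 library 1, 3 of these markers stayed called, and Trdc did not (adjusted p = 0.186 and 0.137). Of 8 NK cell markers, 3 were tested and 2 were higher, Gzma (1.39) and Klra7 (1.29), with a summed level of 309 to 472 CPM in Th1 and 106 to 174 CPM in Th2 libraries, most of it Gzma. Klra8 had no count in any of the 6 libraries. The part of such cells in the cytotoxic genes was not tested.

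Interferon response genes leaned to the Th1 side, with 17 higher and 6 lower of 32 tested (median 0.45). The GTPase gene Gbp7 was at 28.7, 26.7 and 27.8 CPM in Th1 and at 4.97, 6.10 and 2.48 CPM in Th2 libraries (2.62, SE 0.210, adjusted p = 2.55e-08). Iigp1 (3.46, adjusted p = 1.57e-06, and 4.44 without Th2 library 2), Gbp5 (1.86), Gbp3 (1.86) and Gbp2 (1.71) followed; the Gbp genes are near copies, and reads may be split among them. Going against the group were Ciita, the master activator of MHC class II genes, at -1.73 (adjusted p = 0.0432), and Cd274, the gene of PD-L1, at 27.8 ± 2.84 CPM in Th1 and 48.3 ± 1.73 CPM in Th2 cells (-0.80, adjusted p = 1.04e-05). The Ciita call was lost without Th1 library 1 (0.164), Th1 library 2 (0.0927), Th2 library 2 (0.224) or Th2 library 3 (0.0613) and with counts without strand (0.0501), and the difference was -2.49 without Th1 library 3.

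Of 28 genes of Jak, Socs and related cytokine signalling, 2 were higher and 10 lower in Th1 cells, and 1 was higher without Th1 library 1 or 3 or Th2 library 1 or 2. Jak2, the kinase of the IL-12, IL-23 and interferon gamma receptors, was at 340, 399 and 345 CPM in Th1 libraries, against 1020, 936 and 1102 CPM in Th2 libraries (-1.50, SE 0.0868, adjusted p = 4.14e-10). Dusp6, a phosphatase that turns off ERK kinases, was at 40.8, 49 and 39.8 CPM in Th1 and at 224, 230 and 252 CPM in Th2 libraries (-2.45, SE 0.102, adjusted p = 4.56e-12). The feedback inhibitors Socs2 (-0.80, adjusted p = 1.15e-05) and Socs3 (-0.64, adjusted p = 4.59e-06) were lower too, while the phosphatase gene Dusp5 was higher (0.80, adjusted p = 1.91e-06). Proximal T cell receptor signalling gave 9 higher and 7 lower genes of 28, and the lower count was 3 without Th1 library 1 or Th2 library 1. Both widest differences were of brakes: Cblb, a ubiquitin ligase that restrains activation, was at 175, 152 and 190 CPM in Th1 and at 54.8, 49.5 and 50.5 CPM in Th2 libraries (1.74, SE 0.139, adjusted p = 2.45e-08), and the phosphatase gene Ubash3b averaged 54.1 ± 3.41 and 23.4 ± 0.350 CPM (1.21, adjusted p = 1.2e-08).

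Metabolic genes mostly differed by under 2-fold, with at most 2 genes called and at least 2-fold different in any of their lists. This was so of most genes, since 6.94% of all genes tested were called and at least 2-fold different. The metabolic lists leaned in different directions. Amino acid transport and serine synthesis leaned furthest to the Th1 side, with 14 higher and 1 lower of 29 tested (median 0.36). The lower count was 2 without Th1 library 3 and 0 without Th2 library 1 or 3. Slc7a5, a chain of the leucine transporter, was at 235, 200 and 174 CPM in Th1 and at 128, 123 and 115 CPM in Th2 libraries (0.73, SE 0.0915, adjusted p = 6.51e-06). Phgdh, the first enzyme of serine synthesis, was at 63, 57.6 and 53.8 CPM in Th1 and at 36.6, 38 and 36.6 CPM in Th2 libraries (0.65, SE 0.0895, adjusted p = 1.94e-05). Shmt1, which passes serine carbon to folate (0.64, adjusted p = 0.00155), and Asns, asparagine synthetase (0.61, adjusted p = 6.72e-06), were higher as well. Psat1 (0.38), Psph (0.53), Shmt2 (0.52) and Mthfd2 (0.56), the next steps of serine and folate metabolism, named after their values were seen, were all called. In KO cells the list had 8 higher and 1 lower (median 0.21). Of 14 arginine, polyamine and tryptophan genes tested, 4 were higher and 1 lower (median 0.04). That is 35.7% called, near the 29.5% of all genes. The higher ones included Amd1, which has near-identical copies (1.18, adjusted p = 1.54e-04), Smox (0.55, adjusted p = 0.00328) and the spermidine synthase gene Srm (0.47, adjusted p = 0.00229). The lower one was Arg1, arginase 1, at 0.410 ± 0.140 CPM in Th1 and 1.43 ± 0.405 CPM in Th2 cells (-1.75, adjusted p = 0.0380), whose call was lost without Th1 library 1 (0.118), Th1 library 2 (0.0918), Th2 library 1 (0.0928) or Th2 library 3 (0.124) and with counts without strand (0.0572). The lower count was 2 without Th1 library 3 or Th2 library 2, and 0 without Th1 library 1 or Th2 library 1 or 3.

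Glycolysis leaned to the Th2 side, with 2 higher and 9 lower of 25 tested (median -0.17). Ldhb, a lactate dehydrogenase subunit, was at 12.1, 17.8 and 9.91 CPM in Th1 and at 31.2, 30.5 and 36.9 CPM in Th2 libraries (-1.32, SE 0.153, adjusted p = 2.77e-06). Aldoc, an aldolase, averaged 169 ± 22.2 CPM in Th1 and 268 ± 12.3 CPM in Th2 cells (-0.67, adjusted p = 4.79e-06), and Slc2a1, the glucose transporter GLUT1, 286 ± 2.65 and 362 ± 31.7 CPM (-0.34, adjusted p = 6.93e-04). Ldha was not called (0.10). Eno3 was higher (0.86, adjusted p = 0.00402), and Hk2, the inducible hexokinase, was higher by 0.25 (adjusted p = 0.011) but not without Th1 library 1 (0.0546). Stress and hypoxia genes also leaned to the Th2 side, with 0 higher and 9 lower of 20 (median -0.29). Among them Vegfa averaged 104 ± 11.9 CPM in Th1 and 177 ± 11.4 CPM in Th2 cells (-0.77, adjusted p = 5.73e-06) and Ddit3, the stress factor CHOP, 26 ± 5.65 and 56.1 ± 19.9 CPM (-1.11, adjusted p = 1.88e-04). Without Th2 library 3, 1 gene of that list was higher.

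Mitochondrial fuel genes moved both ways. The share called was 32.1% for TCA cycle genes and 21.9% for nuclear respiratory chain genes, near or under the 29.5% of all genes. It was 62.5% for mitochondrial DNA genes and 45% for fatty acid oxidation genes. Of 28 TCA cycle genes, 4 were higher and 5 lower (median 0.01), and 3 were lower without Th1 library 1 or 2 or Th2 library 1 or 2. Pcx, pyruvate carboxylase, was at 61.7, 63.5 and 66.3 CPM in Th1 and at 144, 141 and 140 CPM in Th2 libraries, without overlap (-1.15, SE 0.0897, adjusted p = 1.88e-08). Mdh2, mitochondrial malate dehydrogenase, was higher in Th1 cells (0.34, adjusted p = 6.49e-04), while the cytosolic Mdh1 was lower (-0.44, adjusted p = 1.5e-04). Of 32 nuclear genes of the respiratory chain, 6 were higher and 1 lower (median 0.06), and 3 were higher without Th1 library 1 and 0 lower without any one library other than Th2 library 2. Of 8 mitochondrial DNA genes tested, 4 were higher and 1 lower, but 0 were higher without Th1 library 1 or Th2 library 1. The list holds 13 genes, of which mt-Nd4l, mt-Co2, mt-Co3, mt-Atp6 and mt-Atp8 had no count in any of the 6 libraries. Its summed level was 2291 to 2730 CPM in Th1 and 2226 to 2535 CPM in Th2 libraries, a small part of the mitochondrial counts given above. The 2 mitochondrial ribosomal RNA genes tested were lower in Th1 cells. How far the counting lost reads of these genes was not tested. Of 20 fatty acid oxidation genes, 2 were higher and 7 lower (median -0.10). Cpt1a, the gate of fatty acid entry into mitochondria, was at 31.2, 31 and 36.1 CPM in Th1 and at 69.6, 64 and 64.2 CPM in Th2 libraries (-1.01, SE 0.0982, adjusted p = 3.29e-07), and Acadl, a long-chain dehydrogenase, went the other way (0.75, adjusted p = 1.31e-05).

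Among lipid genes, more were called lower than higher in Th1 cells. Of 25 sterol genes, 1 was higher and 8 lower (median -0.11), with 5 lower without Th1 library 3 and 4 without Th2 library 1. That is 36% called, against 29.5% of all genes. In KO cells the sterol list had 1 higher and 4 lower (median -0.004). Hsd17b7, an enzyme of cholesterol synthesis, averaged 25.9 ± 2.73 CPM in Th1 and 59.4 ± 6.48 CPM in Th2 cells (-1.20, adjusted p = 5.9e-07), and the 1 higher gene was the cholesterol exporter Abca1 (1.04, adjusted p = 3.04e-04). Of 23 genes of fatty acid synthesis and lipid handling, 2 were higher and 8 lower (median -0.06); the higher count was 1 without Th1 library 1 or Th2 library 3 and 4 without Th1 library 3. Ptgs2, the prostaglandin enzyme COX-2, had CPM of 0, 0 and 0.191 in Th1 libraries, against 1.52, 2.55 and 2.07 in Th2 libraries (adjusted p = 5.82e-05). That is 2 counts against 44, 29.3-fold lower in Th1 with a counting interval of 7.65 to 250. Mgll, which splits monoglycerides, was at 49.3, 51.3 and 46 CPM in Th1 and at 120, 102 and 118 CPM in Th2 libraries (-1.21, SE 0.0809, adjusted p = 2.61e-09). Glutathione and redox genes were balanced, with 6 higher and 6 lower of 29 (3 higher without Th1 library 1). Gss, glutathione synthetase, differed by -1.16 (adjusted p = 4.94e-06) and the transferase gene Gstt1 by 1.38 (adjusted p = 8.69e-04).

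**Figure D4:**
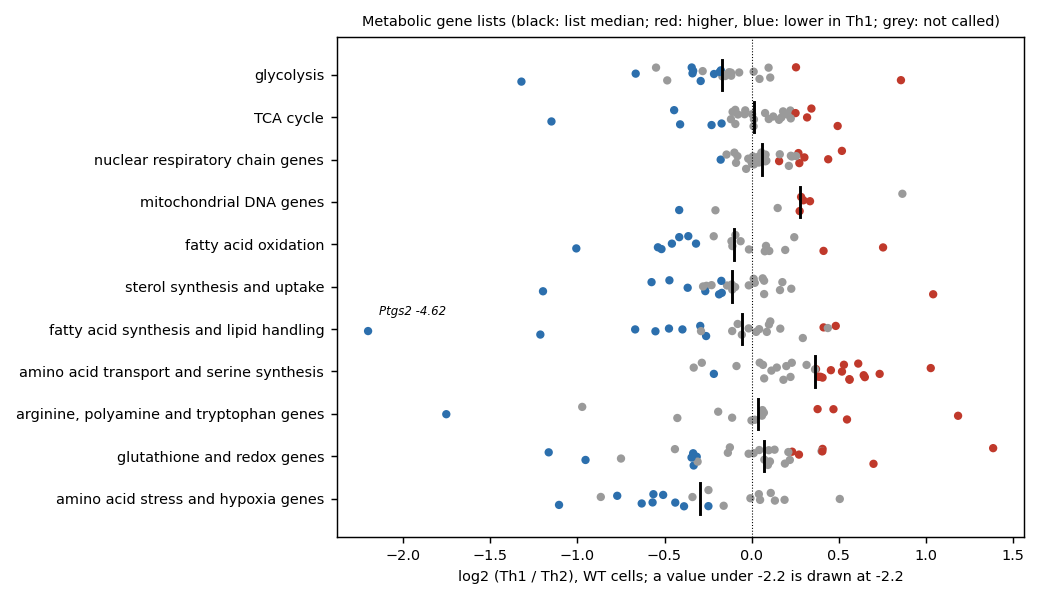
Log2 differences of WT Th1 over WT Th2 cells for the tested genes of 11 metabolic lists, 1 point a gene and a black line at the median, red where higher in Th1, blue where lower and grey where not called. The median is highest for amino acid transport and serine synthesis (0.36) and lowest for stress and hypoxia genes (-0.29).

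Outside the lists, 1260 protein-coding genes on the Th1 side and 1357 on the Th2 side were called without overlap and with at least 5 CPM in every library of the higher fate, and the 15 widest of each side are described here. Dclk1, a microtubule-binding kinase best known from neurons and tuft cells, led the Th1 side at 39.9, 22.5 and 39 CPM in Th1 libraries, against 0.138, 0.142 and 0.275 CPM in Th2 libraries (7.40, SE 0.504, adjusted p = 3.27e-09). The Th1 side included the serpin genes Serpinb5, the gene of maspin (6.73, and 6.09 without Th1 library 3 or 7.98 without Th2 library 3), Serpinb9b, with 340 counts in Th1 and 3 in Th2 cells (85.0-fold, counting interval 28.8 to 414), and Serpine2, a protease inhibitor known as nexin-1 (3.12). Serpine2 was at 115, 96.6 and 95.6 CPM in Th1 and at 11.7, 13.6 and 10.1 CPM in Th2 libraries (SE 0.125, adjusted p = 3.01e-12). Serpinb9b has close copies nearby, so its reads are uncertain. Plac8, a small cysteine-rich protein of leukocytes, was at 162, 127 and 152 CPM in Th1 and at 8.14, 12.2 and 7.30 CPM in Th2 libraries (4, SE 0.191, adjusted p = 2.69e-11).

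Ermn, a cytoskeletal protein of oligodendrocytes, was at 222, 141 and 299 CPM in Th1 libraries, against 29.1, 16.6 and 49.9 CPM in Th2 libraries (2.79, SE 0.292, adjusted p = 8.25e-07). Tbkbp1, an adaptor of the kinase TBK1, was at 84.4, 90.5 and 79.9 CPM in Th1 and at 13.8, 12.9 and 11.4 CPM in Th2 libraries (2.74, SE 0.126, adjusted p = 1.48e-11). The rest of the Th1 side was Mt3, a metallothionein (4.08, and 4.84 without Th2 library 3), Filip1, which binds filamin (3.84), Casr, the calcium-sensing receptor (3.62), Sytl2, a vesicle docking protein (3.50), the myosin kinase gene Mylk (3.39), the Wnt ligand gene Wnt10b (3.31, and 3.98 without Th2 library 3), Ms4a4b (2.97, with close copies, and 3.75 without Th2 library 2) and Xdh, xanthine dehydrogenase (2.93). In KO cells all 15 had a positive difference, from 2.02 (Ms4a4b) to 6.52 (Serpinb9b).

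On the Th2 side, March10, a membrane-bound ubiquitin ligase gene, had no count in any Th1 library, against 45, 38.6 and 31 CPM in Th2 libraries. It was at least 348-fold lower in Th1 against a floor of 3 counts over the group (adjusted p = 4.07e-09). Spx, a gene of the peptide hormone spexin, also had none in Th1 libraries, against 6.62, 6.52 and 14 CPM in Th2 libraries, at least 83.0-fold lower (adjusted p = 4.3e-06). Tanc2, a postsynaptic scaffold gene, was at 9.76, 13.3 and 11 CPM in Th1 and at 339, 307 and 348 CPM in Th2 libraries (-4.87, SE 0.438, adjusted p = 1.15e-07). Fgf2, basic fibroblast growth factor, was at 16.1, 20.6 and 11.4 CPM in Th1 libraries, against 181, 160 and 184 CPM in Th2 libraries (-3.46, SE 0.321, adjusted p = 1.71e-07).

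Of the other genes of the Th2 side, Syn2, a synaptic vesicle protein (-5.36, and -5.95 without Th1 library 3), Nrgn, a calmodulin-binding protein (-4.95), Shtn1, a protein of growing axons (-4.39), the semaphorin gene Sema3e (-4.17), Nts, neurotensin (-3.97), and Nrp2, a semaphorin receptor (-3.54), were lower in Th1 cells. Nrgn was at 0.530, 1.02 and 0.572 CPM in Th1 and at 20.01, 24.8 and 20.9 CPM in Th2 libraries (SE 0.421, adjusted p = 5.84e-08). The rest were Tcaf2, a regulator of a cold-sensing channel (-6.89, and -7.60 without Th1 library 2), Adamtsl3, a matrix protein (-4.55), Slc7a2, an arginine transporter (-4.14), the phospholipase gene Plcd4 (-4.07, and -5.29 without Th1 library 1) and Ccdc33 (-3.32). Adamtsl3 was at 1.49, 2.95 and 2.19 CPM in Th1 and at 55.1, 55.6 and 44.5 CPM in Th2 libraries (SE 0.280, adjusted p = 9.89e-10). In KO cells all 15 again had a negative difference. March10 and Spx had counts in KO Th1 cells, at means of 0.997 and 0.579 CPM, but most of them were in library 1. By library, March10 was at 2.69, 0.203 and 0.100 CPM and Spx at 1.64, 0.101 and 0 CPM. All 30 genes kept their WT calls under every alternative that was run. They were picked for wide differences without overlap in these same libraries, so this adds no support.

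**Figure D5:**
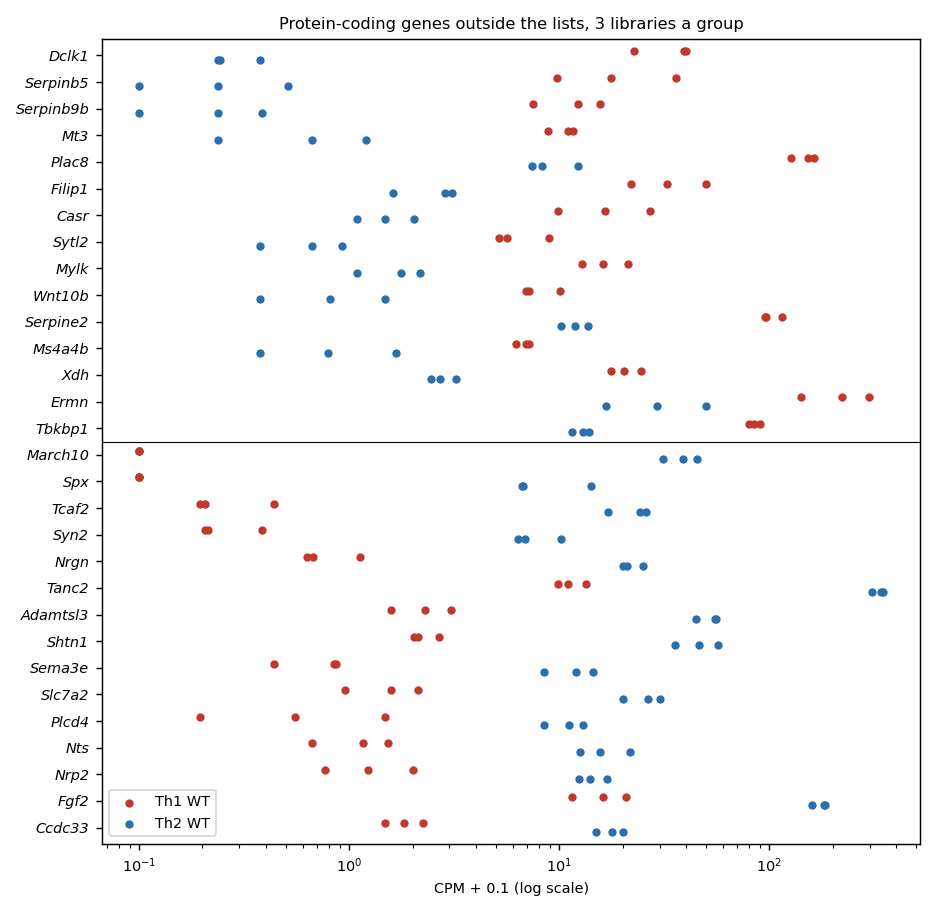
CPM + 0.1 on a log scale for the 30 protein-coding genes outside the lists with the widest differences, 3 red points for Th1 and 3 blue points for Th2 libraries on each row, the 15 higher in Th1 above the line and the 15 lower in Th1 below it. No row has overlapping groups, and March10 and Spx sit at 0.1 in Th1, which is a count of 0.

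Genes with large differences often lay beside each other on the chromosome. Of 293 protein-coding genes at least 2-fold higher in Th1 cells, 27% had an immediate tested protein-coding neighbour that was also at least 2-fold higher, and 7.51% one that was at least 2-fold lower. Of 521 genes at least 2-fold lower, 26.3% had such a lower neighbour and 4.22% a higher one. Over all 11050 tested protein-coding genes, 5.01% had a neighbour at least 2-fold higher and 9.1% one at least 2-fold lower. Gene families in tandem count toward these shares, so they are a description without a test.

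Pairs that are not of 1 family were among them, and are named after their values were seen. Tbkbp1 lies 20.8 kb from Tbx21 on chromosome 11, both on the minus strand, and both were higher, while on their flanks Osbpl7 was not called (0.05) and Kpnb1 was higher by 0.30. March10 and Tanc2, 133.3 kb apart, stood between Mrc2 (-0.42, adjusted p = 0.666) and Cyb561 (0.44, adjusted p = 0.143), neither of which was called. Syn2 ends 78.9 kb before Pparg on chromosome 6, and both were lower, with Tamm41 (0.17) not called on the flank of Syn2. Il9 and its neighbour Tgfbi were also lower together, Tgfbi at 2 counts in Th1 and 99 in Th2 cells (66.0-fold, counting interval 17.8 to 552, adjusted p = 1.7e-05). So were Slc7a2 and its neighbour Pdgfrl, at 3 and 46 counts (20.4-fold, counting interval 6.57 to 103, adjusted p = 1.06e-04).

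Of 294 long non-coding genes tested (lincRNA, antisense and processed transcripts), 28 were higher and 31 lower in Th1 cells, or 20.1%, against 29.5% of all genes. The 2 sets were not matched by level, so the smaller share is not read as a result. By the same rule at 1 CPM, 23 qualified on the Th1 side and 25 on the Th2 side. The 5 widest on the Th1 side were Sox5os3 (3.39, and 2.80 without Th1 library 3), Gm10044 (2.47), 1700112H15Rik (2.15), C430002N11Rik (1.91) and BE692007 (1.90). BE692007 was at 7, 8.51 and 9.05 CPM in Th1 and at 3.31, 1.84 and 1.38 CPM in Th2 libraries (SE 0.301, adjusted p = 8.35e-05). On the Th2 side they were Gm20186 (-3.04, and -4.29 without Th1 library 2 or -2.43 without Th1 library 3), Gm17634 (-2.46), Gm13218 (-2.38), Gm9885 (-2.23) and Gm16201 (-2.09). Gm9885 was at 0.424, 1.13 and 0.857 CPM in Th1 and at 4, 3.55 and 3.86 CPM in Th2 libraries (SE 0.379, adjusted p = 1.8e-04).

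Of 8 B cell markers 6 were tested and 4 were lower in Th1 cells, with 2 lower without Th1 library 1 or Th2 library 2; their summed level was 22.6 to 51.8 CPM in Th1 and 28.8 to 46 CPM in Th2 libraries. Fcer2a (-2.79, and -3.50 without Th1 library 2) and Cd79b (-1.79) were among the lower ones. The 4 tested genes annotated as immunoglobulin constant genes, in the list or not, were all lower in Th1 cells. A gene can pass the filter on low counts through 1 high group alone, so these shares are not read as a result. Of 10 myeloid markers 1 was tested and it was not called, with Lyz2, S100a8 and S100a9 at 0 in all 6 libraries. Of 8 dendritic cell markers 5 were tested and 2 were lower, but only 1 without either of Th1 libraries 2 and 3 or Th2 libraries 2 and 3. Their summed level was 160 to 173 CPM in Th1 and 169 to 181 CPM in Th2 libraries, most of it Ccr7, a homing receptor that T cells express too, at 127 to 145 CPM in Th1 and 133 to 152 CPM in Th2 libraries. Siglech, Clec9a and Xcr1, which define dendritic cell subsets, were at 0 in all 6. Cpa3, Fcer1a and Ms4a2, which define mast cells and basophils, were at 0 in all 6, as were the haemoglobin genes. Hdc, the histamine enzyme of such cells, was the 1 mast cell and basophil marker tested, at 0.204 ± 0.0865 CPM in Th1 and 1.30 ± 0.0702 CPM in Th2 cells (-2.56, adjusted p = 9.96e-04). Of 15 handling stress genes 4 were higher and 7 lower in Th1 cells, led by the near-identical heat shock genes Hspa1a (-3.27, and -4.10 without Th1 library 3 or -2.67 without Th2 library 3) and Hspa1b (-1.98), and 4 were lower without Th1 library 1. The part of these cells and of handling in the fate difference was not tested.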

How the data were processed

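Total RNA was sequenced with a stranded kit, and per the labels' protocols the runs were made on a NextSeq 550 or a NovaSeq, without saying which library ran on which. The authors deposited, for each library, a table of raw counts of reads for all genes, without strand and for each strand; per the submitters' processing notes STAR 2.5.0a and GRCm38 were used, and the annotation release is not stated there. The counts of 1 strand were used, since 94.0% to 94.7% of the stranded counts of the 6 WT libraries lay on it. The 4 summary lines of each table, 68.4% to 72.9% of the reads in those 6 libraries, were left out of library sizes and tests. Of 45706 gene IDs, 45143 were named through GENCODE M21 and 563 were not.

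Counts of 12 libraries (WT and KO, Th1 and Th2, 3 each) were fitted together in edgeR 4.0.16 (R 4.3.3) with TMM scaling, filterByExpr by group, 1 mean a group and the quasi-likelihood test, with Benjamini-Hochberg adjustment over 12616 genes. The procedure was tested on simulated data. Alternatives were RLE and upper quartile scaling, DESeq2 1.42.0, no filter on low counts, the 6 WT libraries alone, a replicate block, counts without strand and each library left out. No pair of libraries within a group of the fit agreed within sampling noise, and pairs across groups were not checked. The members and gene lists were chosen with earlier results of these data known. Named are the 4 markers, up to 5 called genes a direction of each list by size of difference, list members given as not called, and outside the lists 15 protein-coding and 5 non-coding genes a direction by the rule given with them; some genes of these rules are not reported here, and others are said to have been picked after their values were seen. The 10 lists of other cells and stress include CD8 T cell markers (1 tested, not called) and sex-linked genes (1 tested, not called). Reads that map to several places are in a summary line of the deposited tables, so near-identical genes may be under-counted.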

Additional observations from a re-analysis of the deposited data

How the results depend on the processing

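WT calls numbered 3717 in all, 3845 with the replicate block, and 2787 to 3705 when each library was left out in turn; those at least 2-fold different numbered 813 to 961 then. Under RLE, upper quartile, DESeq2, no filter, the 6 WT libraries alone and counts without strand, the WT totals stayed within 1.5 times of 3717. KO calls ranged from 1380 to 2046 over libraries left out, where leaving out library 2 of KO Th1 gave 1380 and library 2 of KO Th2 1441. The difference between genotypes gave 20 calls in DESeq2, 213 with no filter on low counts and 0 to 3 over libraries left out. The replicate numbers of Th1 and Th2 libraries share only a number: same-numbered deviations correlated at 0.0888, 0.176 and 0.313, and Th1 library 1 correlated best with Th2 library 2 (0.122). With that block, Runx3 (adjusted p = 0.0155) and Csf2 (0.00869) were called. Of 213 named genes, 196 kept their side of the threshold under the 13 alternatives and 0 reversed; 27 called ones moved by over 1.5-fold without 1 library. Of 1038 list counts under alternatives, 946 were within 1.5 times of the value given. The median of all genes moved by less than 0.1 under each scaling, and list medians kept their sign except that of the Runx, Ikaros and Ets factors (-0.013 to 0.009). The causes of these changes were not tested. Limits are the unstated Th2 culture, replicates that may be technical, and low counts, at which single libraries decided several calls.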

Other observations

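Cell cycle genes were 7 higher and 3 lower in Th1 cells of 29 tested (median 0.15), with 4 higher without Th1 library 1 or Th2 library 3. That is 34.5% called, near the 29.5% of all genes. Myc, a transcription factor of dividing T cells, was at 331, 300 and 277 CPM in Th1 libraries, against 169, 185 and 165 CPM in Th2 libraries, without overlap (0.81, SE 0.0881, adjusted p = 1.36e-06). Pcna, the sliding clamp of DNA replication, differed by 0.58 (adjusted p = 1.11e-04). Cdkn1b, the cycle inhibitor p27, averaged 85.8 ± 16.1 CPM in Th1 and 133 ± 23.7 CPM in Th2 cells (-0.63, adjusted p = 7.97e-04). Cdkn2a, another inhibitor gene, was at 1.80, 0.907 and 3.05 CPM in Th1 and at 0.138, 0.284 and 0 CPM in Th2 libraries (57 counts against 3, 14.3-fold higher with a counting interval of 4.64 to 71.2, adjusted p = 5.59e-04). Survival and death genes were 2 higher and 9 lower of 22 (median -0.25). Traf1, an adaptor of TNF receptors, was higher (0.55). Casp1, the caspase that processes IL-1 (-0.92), and Bbc3, the death gene Puma (-0.54), were lower in Th1 cells.

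The 30 protein-coding genes outside the lists had levels in 2 further sets of libraries, given without a test. In the 2 untransduced WT Th1 libraries of the second experiment, Dclk1 was at 149 and 154 CPM, Ermn at 384 and 390 CPM and Mylk at 97.8 and 74.0 CPM. March10 was at 0 and 0.216 CPM there, Tanc2 at 7.19 and 9.07 CPM and Fgf2 at 4.69 and 4.53 CPM. In the 2 naive WT libraries Dclk1 and March10 had no count, while Ms4a4b was at 236 and 248 CPM and Sytl2 at 29.6 and 30.3 CPM, both above their Th1 means of 6.67 and 6.47 CPM in the first experiment.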
